A study of Ictalurus punctatus with 14 samples.

Results

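In the channel catfish (Ictalurus punctatus), 150 of 23231 genes were selected on an expression that was higher every 2 days from 5 to 10 days post fertilization (dpf) in the study of its early development. RNA had been sequenced from whole-body pools of several embryos or larvae of the Kansas random strain at 2 dpf and on each day between 5 and 10 dpf, with 2 replicate pools per stage and 14 libraries in all. The stages were not set apart by an experimental treatment or genetic change. The paper mentions treatments, which it does not describe, that ended before hatching was expected. Embryos at 2 dpf were still within the chorion, and the swim-up fry received feed from 7 dpf. Total counts lay between 4349807 and 16097718 per library, and 3 counts equalled 0.186 to 0.69 CPM (counts divided by the library total and scaled to 1000000), so lower values carry large counting error. The members had a mean of at least 3 CPM at 5 dpf that was not below the mean at 2 dpf, and a higher mean at each of 4 steps of 2 days, 5 to 7, 7 to 9, 6 to 8 and 8 to 10 dpf. Genes were ranked by the smallest of these 4 log2 steps, called the score, which had to reach 0.25. All criteria were met by 260 genes, and the 150 with the highest score were chosen by this ranking. The 4 identifiers that the rule excludes were not among them. Because the steps chose the members, the differences along these steps, and between 2 and 5 dpf, are described and were not tested. A contrast of even against odd larval days, given further below, was tested. It uses the same stage means, so its calls only describe the members.

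The larval days cover the change from a fish living on yolk to one that swims, sees, hunts and digests food. In vertebrates this change involves the wrapping of axons in myelin, the outgrowth of rod and cone outer segments, smooth muscle forming around gut and vessels, a pancreas that packs digestive enzymes into granules, an intestinal lining with a brush border, and a liver that secretes plasma proteins and bile. Some genes known from each of these tissues were among the members, placed there by name after the members were known. In whole-body RNA, more cells of a type and more RNA per cell cannot be told apart.

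At 2 dpf the median member stood at 1.48 CPM, and 62 of the 150 members were below 1 CPM. The median was 5.77 CPM on day 5, 8.33 on day 6, 10.9 on day 7, 16.7 on day 8, 24.5 on day 9 and 30.3 on day 10. The share of all counts that fell in the 150 genes was 0.050% and 0.039% in replicates 1 and 2 at 2 dpf and 0.211% and 0.214% at 5 dpf. It was 0.412% and 0.411% on day 6, 0.56% and 0.562% on day 7 and 0.844% and 0.993% on day 8. It then stood at 1.304% and 1.246% on day 9 and at 1.601% and 1.691% on day 10. Both libraries of each stage lay above both libraries of the stage before. The members therefore took a small share of the RNA at every stage, and 6 of them, hpxa, mylz3, LOC108256978, acta2, ahsg2 and myh11a, held 48.1% of the members' counts at 10 dpf. The median fold between 5 and 9 dpf was 3.90, with a range of 1.80 to 72.8. Between 6 and 10 dpf it was 3.38, with a range of 1.80 to 151.

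The label of a steady increase held for some members and not for others. Each step of 1 day passes between an even and an odd day. The libraries of odd larval days had a lower mapping rate, so in such steps, here and below, day and this division cannot be told apart. The stage mean was higher on each of the 5 successive days in 79 members, against 2.25% of the 20329 genes tested, a background that cannot be read as a result because the rule fixes much of it. Of the other members, 43 were higher at 4 of the 5 daily steps, 17 at 3 and 11 at 2. The 11 with 2 daily increases had a lower stage mean on each even day than on the day before, a saw-tooth of 2 separate increasing series. They were LOC108257933, ela2l, pdia2, LOC108272215, myoz1a, gene 108268512, kbtbd12, LOC108274853, LOC108271171, avil and hnf1bb. The pattern is one of means, and the pools did not bear it out in every gene. In hnf1bb the pools of 5 dpf (5.29 and 3.23 CPM) and of 6 dpf (4.55 and 3.74 CPM) overlapped. In LOC108257933, ela2l and pdia2 the 2 pools of 9 dpf and of 10 dpf stood far apart. A higher mean on each even day than on the day before was found in 96 members. These include the 79 that were higher on every successive day, so most of the 96 did not alternate. The share of all genes with either pattern was not computed, so these counts only describe the members. The smallest step was that from 8 to 10 dpf in 66 members, from 5 to 7 dpf in 41, from 7 to 9 dpf in 25 and from 6 to 8 dpf in 18. Both libraries at 7 dpf lay above both at 5 dpf in 143 members (32.0% of all genes), both at 9 above both at 7 dpf in 142 (26.7%), both at 8 above both at 6 dpf in 149 (23.6%) and both at 10 above both at 8 dpf in 119 (30.8%). All 4 steps were free of overlap in 107 members (2.57% of all genes). Read in the replicate 1 libraries alone, all 4 steps were upward in 144 members (9.58% of all genes), and in the replicate 2 libraries alone in 128 (8.6%). These counts use the contrasts of the rule and are given as a description. At the limit of the ranking, ckmt2b, a mitochondrial creatine kinase of muscle, entered with a score of 0.382, and sema3h, a secreted axon guidance protein, stayed outside with 0.380.

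**Figure D1:**
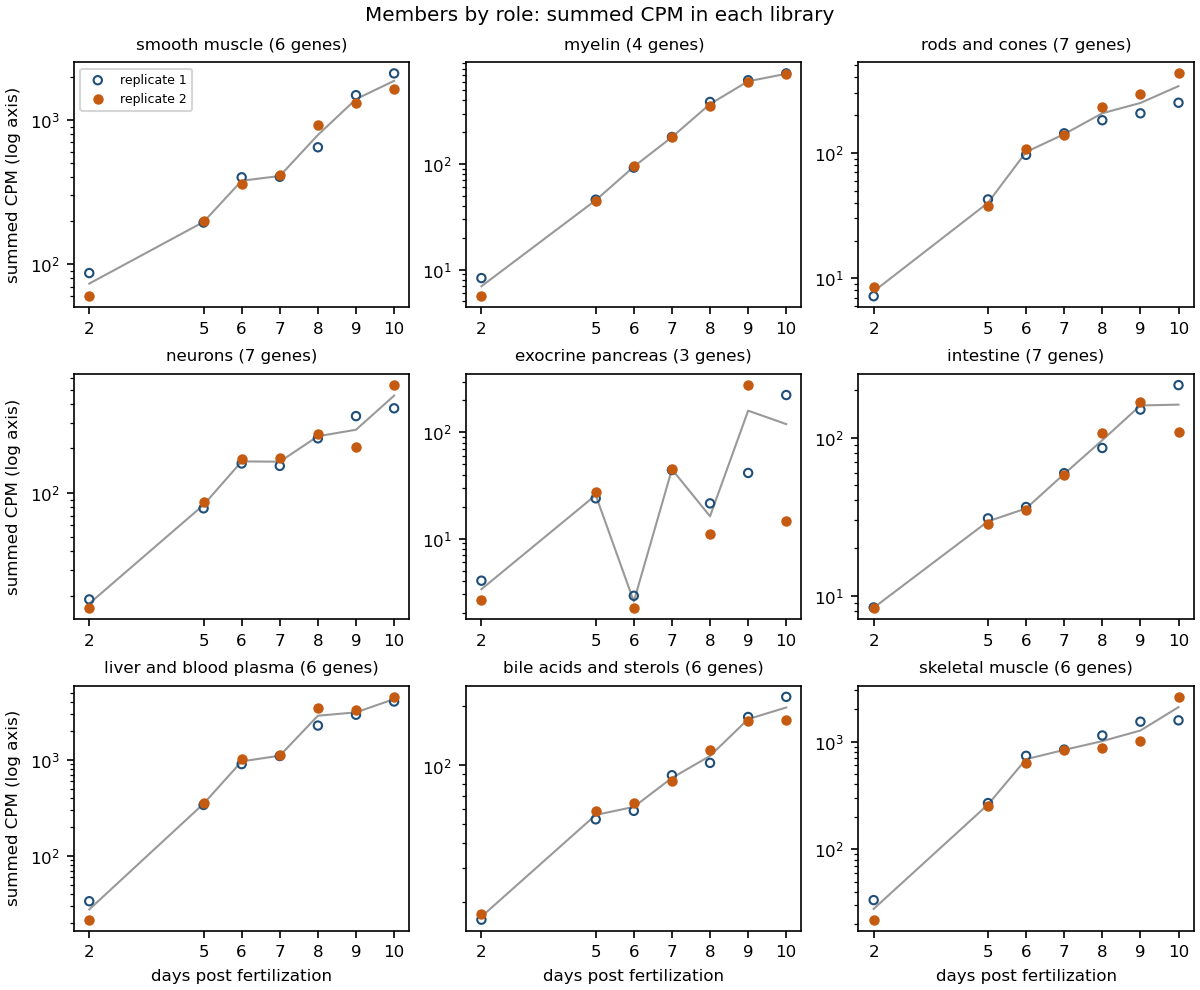
Summed CPM (log axis) of the members in 9 role groups against days post fertilization, with open circles for replicate 1, filled circles for replicate 2 and a line through the stage means. The myelin genes are higher at every stage than at the one before, from 46.0 and 44.9 CPM at 5 dpf on. For the sum of the 3 pancreas genes, both libraries of 6 and of 8 dpf lie below both of the day before. Their pools part at 9 dpf (41.45 and 278 CPM in replicates 1 and 2) and at 10 dpf (224 and 14.6 CPM).

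Of the members, 66 were placed in 12 role groups by their annotated names, after the members were known, so the groups describe the members and test nothing. The group of myelin genes had 4 members, mpz (gene 108261057), mbpa (gene 108257382), mbpb (gene 108280668) and mag. Myelin is the membrane sheath that glia wrap around axons. The summed CPM of the 4 genes was 46.0 and 44.9 at 5 dpf and 722 and 709 at 10 dpf in replicates 1 and 2. With the values of replicates 1 and 2 given in that order for each day post fertilization, the CPM of mpz, which encodes the adhesive myelin protein zero, was 0.934 and 0.642 on day 2, 4.6 and 4.25 on day 5, 13.8 and 15.9 on day 6, 27 and 23.7 on day 7, 50.1 and 55 on day 8, 137 and 83.7 on day 9 and 134 and 161 on day 10. The libraries of successive stages did not overlap at any of the 4 steps of the rule, and the mean was 24.9-fold higher at 9 than at 5 dpf. For mbpa, a myelin basic protein gene that compacts the sheath, the CPM was 1.03 and 0.0917 on day 2, 7.13 and 6.12 on day 5, 21.4 and 20.5 on day 6, 50.1 and 41.2 on day 7, 153 and 141 on day 8, 193 and 242 on day 9 and 322 and 299 on day 10. Both genes were at about 1 CPM or less at 2 dpf. The paralog mbpb stood at 3.83 and 3.39 on day 2, 13.3 and 14.4 on day 5, 19.2 and 18.7 on day 6, 50.1 and 54.4 on day 7, 65 and 56.1 on day 8, 150 and 137 on day 9 and 111 and 98.7 on day 10. It was lower at 10 than at 9 dpf in both libraries, and the paralogs share sequence, so reads could have been split between them in counting. The gene mag, for myelin-associated glycoprotein, was 6.73-fold higher at 9 than at 5 dpf and 3.86-fold higher at 10 than at 6 dpf.

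Smooth muscle genes formed a group of 6, which contract the walls of gut and vessels. They were desmb (gene 108273275), a desmin of the intermediate filaments, acta2 (gene 100304861), the smooth muscle actin, myh11a, the smooth muscle myosin heavy chain, cnn1b, a calponin, cald1b, a caldesmon, and mylkb, a myosin light chain kinase. Together they went from 195 and 199 CPM at 5 dpf to 2102 and 1632 CPM at 10 dpf. The CPM of desmb was 14.3 and 10.7 on day 2, 12.4 and 13.9 on day 5, 27.7 and 23 on day 6, 33.1 and 34.1 on day 7, 62.7 and 75.7 on day 8, 139 and 156 on day 9 and 236 and 212 on day 10. Its level hardly differed between 2 and 5 dpf, and every later stage stood above the one before. In acta2 the CPM was 29.6 and 16.1 on day 2, 57.5 and 57.8 on day 5, 142 and 123 on day 6, 107 and 117 on day 7, 269 and 409 on day 8, 569 and 500.4 on day 9 and 937 and 647 on day 10. Here 7 dpf lay below 6 dpf in both libraries, and the 2 pools at 10 dpf were further apart than those of 9 dpf. Myh11a was 6.54-fold higher at 9 than at 5 dpf and cald1b 3.71-fold. The 6 genes had a CPM of 0.0917 to 29.6 in the libraries of 2 dpf.

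The group named after rods and cones had 7 members. They included gnat1 (gene 108271583), the transducin alpha subunit of rods, gngt1, a transducin gamma subunit, and pde6a, a subunit of the rod phosphodiesterase. Others were saga and arr3a (gene 108276670), the rod and cone arrestins that end the signal, and pdca, phosducin. The group also held rlbp1b, a retinaldehyde-binding protein that is not itself part of the light signal. The CPM of gnat1 was 1.03 and 0.734 on day 2, 10.1 and 7.99 on day 5, 12.2 and 11.4 on day 6, 26.5 and 27.2 on day 7, 30.2 and 30.7 on day 8, 42.9 and 61.5 on day 9 and 52.4 and 73.3 on day 10. Its 2 libraries at each of 7, 8, 9 and 10 dpf lay above both at 6 dpf. The cone gene arr3a had a CPM of 1.77 and 2.75 on day 2, 9.88 and 6.63 on day 5, 39.7 and 41.8 on day 6, 52.7 and 48.4 on day 7, 65.3 and 93.4 on day 8, 73.4 and 96.8 on day 9 and 87 and 169 on day 10. Its largest daily fold lay between 5 and 6 dpf. Saga was 5.61-fold higher at 9 than at 5 dpf and pde6a 2.26-fold. Replicate 2 was the higher library for all 7 genes at 9 dpf and again at 10 dpf, where the 7 genes summed to 251 and 430 CPM.

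Neuronal members included nefla (gene 108279243), a neurofilament light chain of axons, map1ab, a microtubule-associated protein, slc17a7a (gene 108260804), a vesicular glutamate transporter, vamp1b, a synaptic vesicle protein, gabrd, a GABA receptor subunit, and kcna1a and kcnab2b, subunits of voltage-gated potassium channels. The CPM of slc17a7a was 0.373 and 0.183 on day 2, 4.6 and 6.46 on day 5, 8.16 and 7.27 on day 6, 9.65 and 10.7 on day 7, 11 and 12.2 on day 8, 16.1 and 13.3 on day 9 and 22.9 and 42.3 on day 10. No pool of 5 dpf reached the lower pool of 6 dpf, and the highest value was that of replicate 2 at 10 dpf. The CPM of nefla was 1.03 and 1.74 on day 2, 5.06 and 4.93 on day 5, 25.2 and 27.7 on day 6, 12.1 and 14.4 on day 7, 35.7 and 51.5 on day 8, 42.5 and 15.3 on day 9 and 57.8 and 100.4 on day 10. It was lower at 7 than at 6 dpf, and its pools at 9 dpf stood far apart.

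The pancreas genes had some of the largest folds between 6 and 10 dpf and the least even replicates. Exocrine acinar cells of the pancreas make ela2l (gene 100528918), an elastase, pdia2, a protein disulfide isomerase that folds digestive enzymes, and syncollin, a protein of the enzyme granules, which the study's tables name for LOC108278502. The CPM of ela2l was 3.55 and 2.57 on day 2, 14.9 and 19.4 on day 5, 1.76 and 1.72 on day 6, 31.4 and 32.3 on day 7, 14.9 and 7.01 on day 8, 32.6 and 221 on day 9 and 168 and 10.4 on day 10. It was low at 6 dpf in both libraries, and at 9 and 10 dpf the 2 pools of the same day differed by more than the means of these stages did. The CPM of LOC108278502 was 0.187 and 0.0917 on day 2, 3.22 and 3.4 on day 5, 0.62 and 0.303 on day 6, 4.91 and 5.33 on day 7, 1.74 and 1.05 on day 8, 3.55 and 27.6 on day 9 and 31 and 2.39 on day 10, with the same low values at 6 dpf and the same parting of the pools. The highest score of all members, 1.75, was that of LOC108257933, a gene with no name in the annotation. Its CPM was 0.0934 and 0.275 on day 2, 6.67 and 7.47 on day 5, 1.34 and 0.303 on day 6, 22.3 and 25.3 on day 7, 14.7 and 5.84 on day 8, 28.6 and 231 on day 9 and 236 and 12.7 on day 10. The gene c6ast4 (gene 108259573), an astacin-like metalloprotease by its symbol, had 0.0934 and 0 on day 2, 2.99 and 3.06 on day 5, 1.45 and 0.303 on day 6, 5.89 and 5.33 on day 7, 5.84 and 3.27 on day 8, 9.62 and 59.2 on day 9 and 70.6 and 4.78 on day 10. In all of these genes the libraries of 10 dpf replicate 2 and 9 dpf replicate 1 were the low ones of their day. The 10 dpf mean of LOC108257933 and of c6ast4 thus came mainly from 1 pool.

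**Figure D2:**
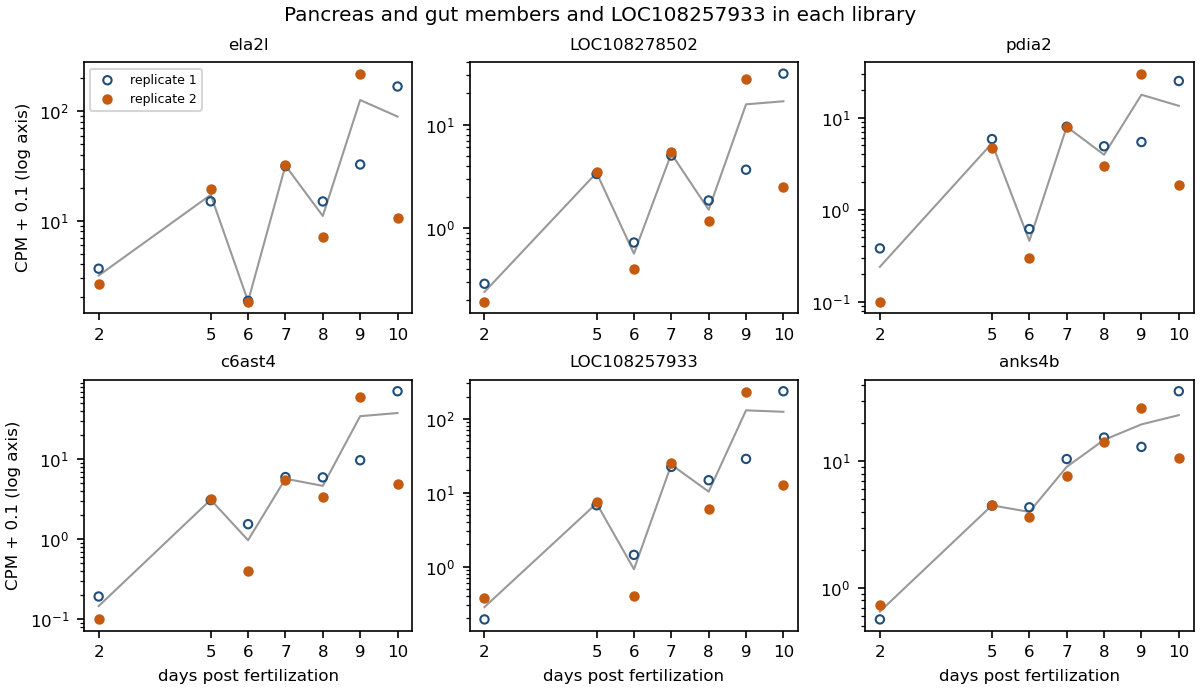
CPM plus 0.1 (log axis) of 6 members in each library against days post fertilization, with open circles for replicate 1, filled circles for replicate 2 and a line through the stage means. Ela2l, LOC108278502 and pdia2 are of the pancreas group and anks4b of the intestinal group, while c6ast4 and LOC108257933 are in neither. In ela2l, LOC108278502, pdia2, c6ast4 and LOC108257933 replicate 2 is far above replicate 1 at 9 dpf and far below it at 10 dpf, while anks4b shows the same order with a smaller gap.

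The absorptive lining of the intestine was represented by 7 members. Npc1l1 (gene 108265750) takes up cholesterol, dpp4 is a peptidase of the brush border, muc13b a membrane mucin, anks4b and ush1c scaffold the links between microvilli, slc6a19a.2 carries neutral amino acids, and gucy2ca is a guanylate cyclase receptor. The CPM of npc1l1 was 3.36 and 2.57 on day 2, 3.68 and 4.42 on day 5, 4.86 and 6.26 on day 6, 7.04 and 8.89 on day 7, 14.7 and 21.4 on day 8, 38.8 and 31 on day 9 and 55.7 and 26.6 on day 10. Its mean was higher at 5 than at 2 dpf and at each of the 5 later daily steps. Dpp4 was 3.96-fold higher at 9 than at 5 dpf and anks4b 4.42-fold. LOC108256310, named in the study's tables as atp4a, the catalytic subunit of the proton pump of stomach acid, had a CPM of 2.9 and 2.75 on day 2, 2.3 and 4.25 on day 5, 7.75 and 4.65 on day 6, 7.2 and 4.15 on day 7, 15.7 and 48.5 on day 8, 113 and 113 on day 9 and 179.7 and 59.2 on day 10. Values up to 7 dpf stayed below 8 CPM, the pools of 8 and 10 dpf stood far apart, and those of 9 dpf were close. Cholesterol and bile genes formed a related group of 6, with nr1h4, the bile acid receptor, slc51a, a bile acid exporter of the gut, akr1d1, an enzyme of bile acid synthesis, abcc2, an exporter of bile pigments, hmgcra, the rate-limiting enzyme of cholesterol synthesis, and scarb1, a receptor for lipoproteins. Their sum was 53.1 and 58.8 CPM at 5 dpf and 224 and 171 CPM at 10 dpf.

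Of the liver members, placed by name, hpxa, ahsg2 and fabp10a stood among the most abundant by CPM, a unit not corrected for gene length. Masp2 (19.7 CPM at 10 dpf) and serpina10b (21.7 CPM) lay below the median member of 30.3 CPM. By symbol, no member fell in the tissue list of liver plasma proteins read below, where 6 of 18 genes rose and 8 fell. Hpxa (gene 100305008) encodes hemopexin, the plasma carrier of free heme, and its CPM was 8.78 and 0.825 on day 2, 244 and 252 on day 5, 710.2 and 812 on day 6, 849 and 878 on day 7, 1695 and 2712 on day 8, 2117 and 2487 on day 9 and 2926 and 3219 on day 10. The libraries of 6 and 7 dpf were close, and a larger step lay between 7 and 8 dpf. Both are steps of 1 day, across the division in mapping rate. Ahsg2 (gene 108267477), a fetuin of plasma, had the largest fold between 5 and 9 dpf, 72.8, with a CPM of 3.73 and 0.917 on day 2, 5.75 and 7.64 on day 5, 64.4 and 62 on day 6, 108 and 112 on day 7, 291 and 418 on day 8, 531 and 445 on day 9 and 579 and 704 on day 10. Both pools of 5 dpf were below 8 CPM, and the mean was 9.44-fold higher a day later. Fabp10a (gene 108256542), the liver fatty acid binding protein, had a CPM of 2.62 and 2.11 on day 2, 60 and 72.4 on day 5, 93.2 and 114 on day 6, 96.9 and 84 on day 7, 234 and 296 on day 8, 217 and 285 on day 9 and 462 and 520 on day 10. Its mean was higher at 6, 8 and 10 dpf than on the day before, and lower at 7 and 9 dpf. Masp2, a protease of the lectin complement pathway, was 3.96-fold higher at 9 than at 5 dpf, with CPM values between 0.0917 and 23.4 in the 14 libraries. LOC108273724, named habp2 in the study's tables, a plasma protease, was 4.18-fold higher. It was not counted in the liver role group of 6, which also held c4b and serpina10b.

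Skeletal muscle members were mylz3 (gene 100528754), a fast myosin light chain, mybpc2a, a fast myosin-binding protein, myoz1a (gene 108263558) and myoz3a, proteins of the Z-disc, ckmt2b and ky. The CPM of mylz3 was 26.9 and 16.9 on day 2, 198 and 185 on day 5, 647 and 540.5 on day 6, 679 and 680.5 on day 7, 965 and 729.6 on day 8, 1273 and 766 on day 9 and 1335 and 2342 on day 10. The higher pool at 9 dpf was replicate 1 and at 10 dpf replicate 2. Myoz1a had a CPM of 0.84 and 0.55 on day 2, 18.4 and 17.3 on day 5, 15.9 and 14.8 on day 6, 48.3 and 40.1 on day 7, 39.2 and 25.7 on day 8, 67.7 and 63 on day 9 and 51.5 and 46.1 on day 10, lower on each even day than on the odd day before it. Among other high scorers, eef2l2 (gene 108255789), a paralog of translation elongation factor 2, stood at 3.83 and 1.83 on day 2, 27.6 and 21.9 on day 5, 32.2 and 31.3 on day 6, 92 and 92.7 on day 7, 147 and 99.2 on day 8, 238 and 211 on day 9 and 264 and 282 on day 10. Lama3, a laminin chain of basement membranes, was 6.8-fold higher at 9 than at 5 dpf and 7.19-fold higher at 10 than at 6 dpf. LOC108263830 (9.42-fold between 5 and 9 dpf), LOC108265574 (7.99-fold) and LOC108256978 (7.45-fold) were also far from their 5 dpf level, and the files give no name for them. Among the receptor kinase and leukocyte signalling genes, the receptor tyrosine kinase gene kita was 2.17-fold higher at 9 than at 5 dpf, kitb 3.33-fold, the kinase gene lyn 2.76-fold and the integrin gene itgb7 2.88-fold.

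In the annotation, 4 pairs of members were direct neighbours, LOC108271171 with tm4sf4, slc4a5b with scarb1, LOC108266489 with LOC108261972 and LOC108269083 with LOC108269082.

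The even days (6, 8 and 10 dpf) were also set against the odd days (5, 7 and 9 dpf). Every step of the rule lies within 1 of these series, but the same stage means chose the members, the minimum at 5 dpf is an odd-day value, and the even days were on average 1 day later. The differences are therefore a description of the members, and their calls support nothing beyond the selection. In the edgeR fit of all 14 libraries, 68 of the 150 members were higher on even days at an adjusted p under 0.05, or 45.3% of members against 14.9% of all genes tested. In the other direction 5 members were higher on odd days, or 3.33% against 13.1% of all genes. The median even minus odd difference of the members was 0.40 on the log2 scale, and that over all genes was 0.01. The members' median increase within the 2 series was 0.45 per day on the log2 scale. How much of the difference the selection or the later days made was not tested. The division also coincided with a division of the libraries in mapping rate, which was lower on the odd larval days. Day and this technical division cannot be told apart.

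**Figure D3:**
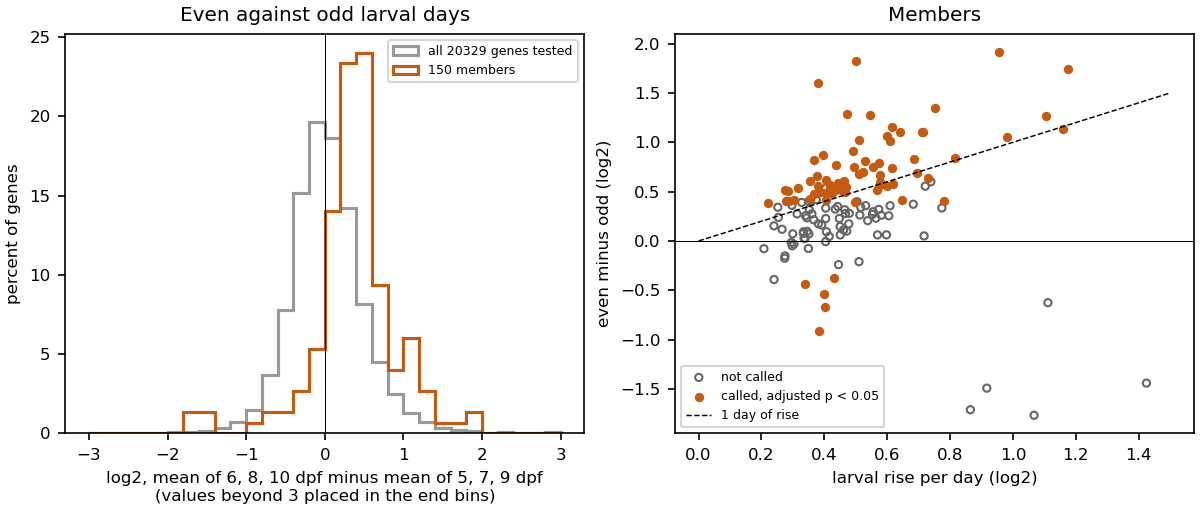
Left, percent of genes against the even minus odd difference (log2 of the mean of 6, 8 and 10 dpf minus that of 5, 7 and 9 dpf), with all 20329 genes tested in grey and the 150 members in orange. Right, this difference against the increase per day within the even and odd series (log2) for each member, filled where called by edgeR, with a dashed line for 1 day of increase; 21 members lie below 0, and the 4 lowest are pancreas genes and LOC108257933.

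Several members exceeded that daily increase. LOC108256942 had an even minus odd difference of 1.92 ± 0.14 (SE) on the log2 scale. Its CPM was 2.71 and 1.83 on day 2, 4.6 and 4.08 on day 5, 26.2 and 26 on day 6, 22.3 and 21.5 on day 7, 79.6 and 104 on day 8, 119 and 88.9 on day 9 and 171 and 299 on day 10. The largest daily folds lay between 5 and 6 dpf and between 7 and 8 dpf. For zgc:113337 (gene 108266832) the difference was 1.29 ± 0.11 (SE) and the CPM 0.28 and 0.275 on day 2, 3.91 and 5.1 on day 5, 11.8 and 12.2 on day 6, 7.69 and 8.29 on day 7, 25.5 and 30 on day 8, 24.3 and 19.4 on day 9 and 38.5 and 34.6 on day 10. The mean was lower at 7 than at 6 dpf and lower at 9 than at 8 dpf. The liver gene ahsg2 differed by 1.74 ± 0.19 (SE) and the neuronal gene nefla by 1.82 ± 0.22 (SE). By role, 5 of 6 liver, 6 of 7 rod and cone and 3 of 4 myelin genes were called higher on even days. So were 4 of 6 smooth muscle, 4 of 7 neuronal, 3 of 6 skeletal muscle and 3 of 6 metabolic enzyme genes. The counts were 2 of 5 receptor kinase and leukocyte, 1 of 3 translation and chaperone and 0 of 3 pancreas genes. In the intestinal group it was 1 of 7, and in the bile and sterol group 1 of 6. The share was 45.3% over all members and 14.9% over all genes tested. These counts rest on the stage means that chose the members and were not compared with a test.

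The 5 members called higher on odd days had a difference opposite in sign to their increase within the series. These calls, too, rest on the stage means that chose the members. Kbtbd12 (gene 108272273), a kelch-domain gene, differed by -0.91 ± 0.14 (SE) on the log2 scale, with a CPM of 0.654 and 0.459 on day 2, 8.28 and 9.0 on day 5, 5.79 and 4.85 on day 6, 18.8 and 21 on day 7, 10.3 and 7.12 on day 8, 28 and 26 on day 9 and 11.9 and 19.5 on day 10. Both libraries of 6 dpf lay below both of 5 dpf, and the same held for 8 against 7 and 10 against 9 dpf. Gene 108268512 differed by -0.44 ± 0.13 (SE), avil (gene 108254993), which encodes an actin-binding protein of the villin family, by -0.54 ± 0.16 (SE), myoz1a by -0.37 ± 0.12 (SE) and LOC108272215 by -0.67 ± 0.22 (SE). The CPM of avil was 0.0934 and 0 on day 2, 3.68 and 3.91 on day 5, 2.69 and 2.42 on day 6, 3.93 and 6.22 on day 7, 4.47 and 5.14 on day 8, 12.4 and 14 on day 9 and 6.82 and 7.55 on day 10. Its lowest larval values were those of 6 dpf and its highest those of 9 dpf. The largest differences among the members lower on even days were those of the pancreas genes, which were not among the 5 and whose pools lay far apart at 9 and 10 dpf. They were -1.77 ± 0.64 (SE) for ela2l, -1.71 ± 0.67 (SE) for pdia2 and -1.49 ± 0.71 (SE) for LOC108278502. The count of 5 depended on single libraries. It was 13 without replicate 1 of 10 dpf, where 23.0% of all genes were called higher on odd days, and 8 without replicate 2 of 10 dpf, where 14.4% were. Without replicate 2 of 5, 6, 8 or 9 dpf it was 1 (8.48% to 9.24% of all genes), without replicate 1 of 5, 6 or 8 dpf or either library of 7 dpf it was 2 (8.58% to 11.4%), and without either library of 2 dpf it was 3 (11.4%).

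The difference between the 2 pools of a stage went different ways in the role groups. It is a description, with 1 pair of pools per stage, and it is not independent of the selection, because the rule takes arithmetic means and 1 high pool can lift a gene over a step. Without replicate 1 of 10 dpf 30 members no longer met the criteria, and without replicate 2 of 10 dpf 14 did not. At 10 dpf 24 members differed at least 2-fold between the pools, 16% of members against 12.2% of all genes, and all 24 were higher in replicate 1. The direction was not counted over all genes, so whether it is particular to the members is not known. At 9 dpf 8 members differed 2-fold (5.33% against 4.9% of all genes) and at 2 dpf, where many members had few counts, 10 did (6.67% against 1.57%). At 5 and 7 dpf none did, against 2.03% and 1.2% of all genes. The largest differences at 10 dpf, as replicate 2 minus replicate 1 on the log2 scale, were -4.30 for LOC108257933, -4.09 for ela2l and -3.88 for c6ast4. At 9 dpf the same genes differed by 3.06, 2.80 and 2.62. The sign was thus turned over between the days, though replicate numbers do not link the pools of different days. All 7 intestinal genes were higher in replicate 1 at 10 dpf, and they summed to 215 and 109 CPM. The 6 smooth muscle and the 6 bile and sterol genes were also all higher in replicate 1, with medians of -0.42 and -0.72 for replicate 2 minus replicate 1 on the log2 scale. Rod and cone genes went the other way, by a median of 0.61 toward replicate 2 at both 9 and 10 dpf. Neuronal genes were all higher in replicate 1 at 9 dpf, and 6 of 7 were higher in replicate 2 at 10 dpf. Over all members, replicate 2 was the higher pool in 37 genes at 2 dpf (43.4% of all genes), 72 at 9 dpf (52.2%) and 66 at 10 dpf (48.7%). The fish of a stage were selected at random and then divided into the 2 pools, and whether the pools differed in feeding, growth or handling was not tested.

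**Figure D4:**
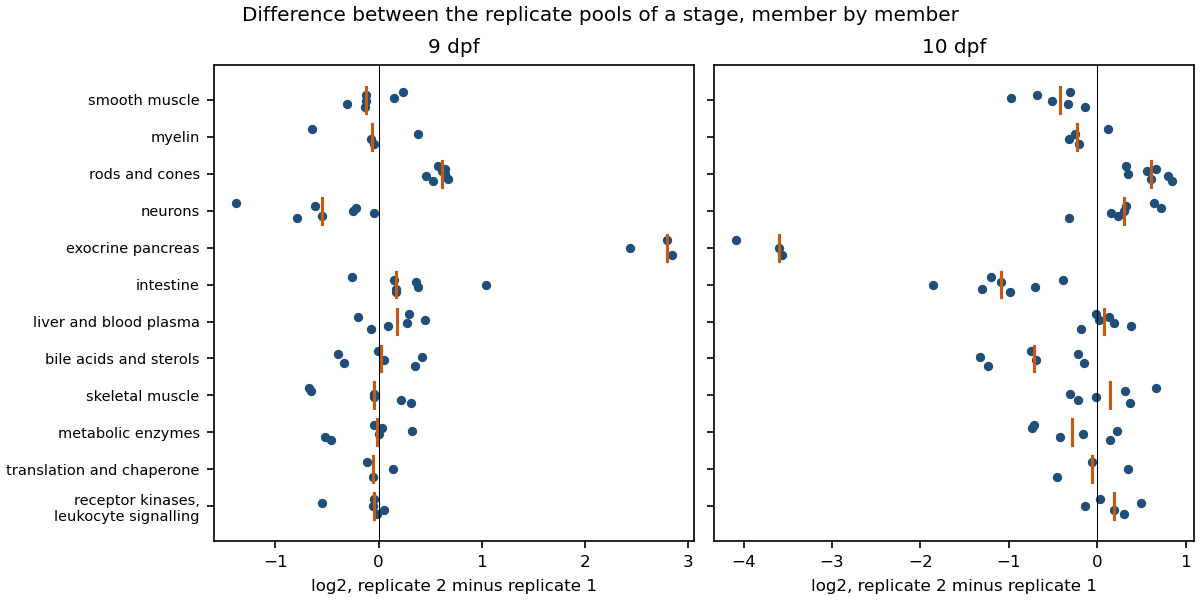
Difference between the pools of a stage (log2 of replicate 2 minus replicate 1) for each member of 12 role groups at 9 and 10 dpf, with 1 point per gene and an orange bar at the median of the group; the horizontal scales of the panels differ. The pancreas genes lie far to the right at 9 dpf and far to the left at 10 dpf, and the rod and cone genes lie to the right of 0 on both days.

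Genes with a related role that the rule did not choose were read from 18 tissue lists. The lists were written with earlier results of these data known, so their shares are not an independent result. Of the members, 15 fell in these lists, and the 219 other genes of the lists that passed the low-count filter were tested for a larval rise, the mean of 9 over 5 dpf and 10 over 6 dpf on the log2 scale. At an adjusted p under 0.05 (edgeR), 107 rose and 51 fell, which is 48.9% and 23.3%, against 22.3% and 24.3% of all genes tested. The median over all genes was 0.01.

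Of the photoreceptor and lens genes that were not members, which include opsin signalling and outer segment proteins, 10 of 12 rose and the median was 2.16 on the log2 scale. LOC108272934, which the study's tables name pde6h, a cone phosphodiesterase subunit, rose by 7.18 ± 0.46 (SE) (adjusted p = 1.15e-06), and rom1a, a protein of the outer segment rim, by 2.58 ± 0.20 (SE) (adjusted p = 2.67e-06). Myelin and glia genes rose in 7 of 8 cases and fell in 1, with plp1b, a proteolipid protein, at 3.98 ± 0.30 (SE) (adjusted p = 2.34e-06) and cldnk, a claudin of myelin, at 3.11 ± 0.25 (SE) (adjusted p = 3.59e-06). Intestinal absorption genes rose in 12 of 16 and fell in 2, and the peptide transporter gene slc15a1b was 6.04 ± 0.42 (SE) higher (adjusted p = 1.06e-06). Of the 4 digestive enzyme genes 3 rose, among them cpb1, a carboxypeptidase, by 6.36 ± 0.96 (SE) (adjusted p = 0.000317) and prss1, a trypsin, by 7.35 ± 1.2 (SE) (adjusted p = 0.000512). Both stayed outside the members because they were below 3 CPM at 5 dpf. The CPM of prss1 was 9.03 and 66.5 at 9 dpf and 151 and 8.31 at 10 dpf, so its pools parted in the same order as those of ela2l.

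Neuronal genes rose in 9 of 13, contractile muscle genes in 9 of 12, and the immune list in 11 of 14 with 3 falling. In the immune list cd4-1, a co-receptor of helper T cells, rose by 2.83 ± 0.31 (SE) (adjusted p = 3.88e-05), and in the muscle list myom1a, a protein of the M-band, rose by 1.28 ± 0.15 (SE) (adjusted p = 5.4e-05). Bone, cartilage and tooth genes rose in 11 of 20 and fell in 1, complement and lysozyme genes rose in 6 of 12 and fell in 1, and lipid and xenobiotic genes rose in 6 of 11 and fell in 2. Ion transport genes of gill and kidney rose in 5 of 10, circadian clock genes in 8 of 17 with 1 falling, and hormone genes in 2 of 10. Liver plasma genes did not share one direction, with 6 rising and 8 falling of 18. Vtna, vitronectin, rose by 1.42 ± 0.11 (SE) (adjusted p = 2.71e-06), whereas the fetuin gene fetub changed by -1.84 ± 0.15 (SE) (adjusted p = 4.83e-06), the opposite sign to that of the fetuin member ahsg2. All 24 cell cycle and replication genes fell, with a median of -1.0, and plk1, a mitotic kinase, changed by -1.11 ± 0.11 (SE) (adjusted p = 1.72e-05). Of the epidermis and mucus genes 2 rose and 3 fell of 6, 2 of 4 globin genes fell, and 3 of 8 lysosomal protease genes fell.

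**Figure D5:**
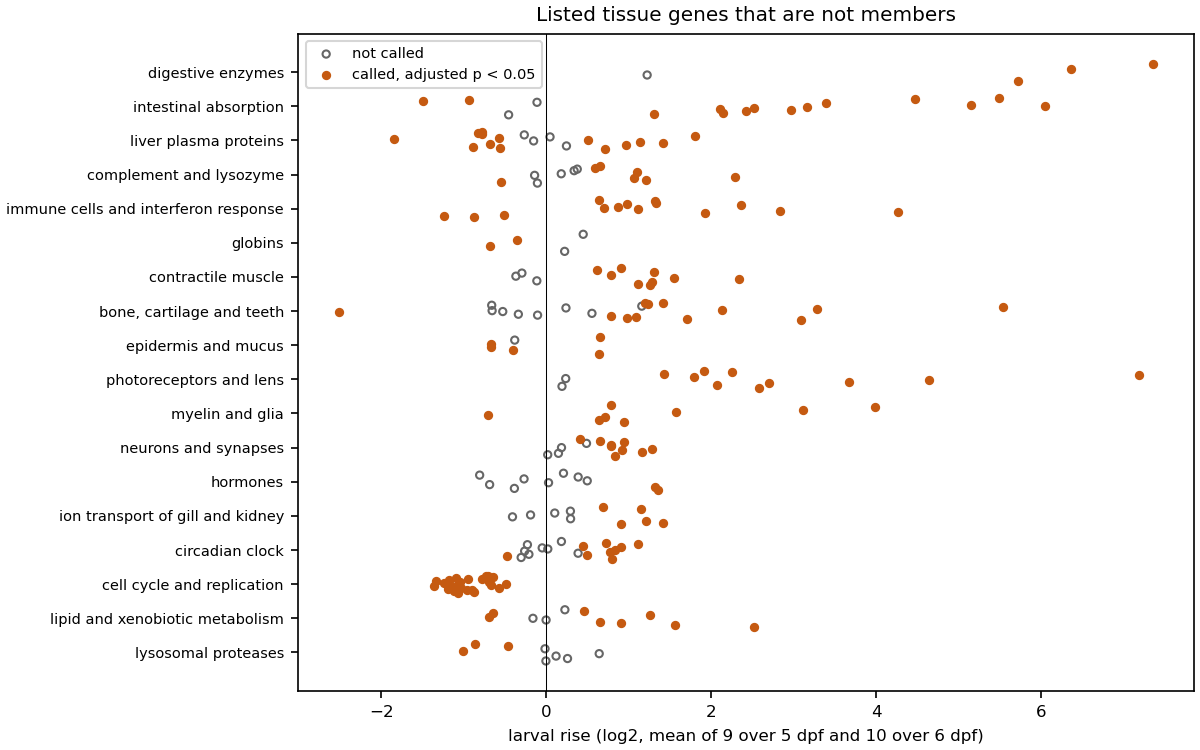
Larval rise (log2, mean of 9 over 5 dpf and 10 over 6 dpf) of the 219 listed genes that are not members, with 1 row per tissue list, filled points called by edgeR at an adjusted p under 0.05 and open points not called. Photoreceptor, intestinal and digestive enzyme genes reach the right of the plot, and all 24 cell cycle genes lie left of 0.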

How the data were processed

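The deposited values are raw counts per gene, which the authors made by trimming reads with Trimmomatic 0.36, mapping them with STAR 2.7.0 and counting with HTSeq after depletion of ribosomal RNA. The reference genome is identified by a citation only, and its version name, the annotation and the strand setting of the counting are not given in the sources used here, so counts of paralogs and overlapping genes are uncertain. Lines of one gene identifier were summed, CPM was taken on the library total, and symbols came from the RefSeq annotation of Coco_2.0 by gene identifier, of which 146 of the 150 members had a row. Of the members, 113 had a symbol other than a LOC number, and 3 of the other 37 were named by the study's tables.

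Tests were made with edgeR 4.0.16 (TMM, quasi-likelihood, low-count filter, R 4.3.3) on all 14 libraries with a mean per stage, and p-values were adjusted by Benjamini-Hochberg over 20329 genes. All 150 members passed the filter. Standard errors are the log2 difference divided by the square root of F. Replicate differences used log2(TMM CPM + 0.5). On data simulated for the even against odd contrast with 20100 genes tested, 99.5% of 200 changed genes were called, with 8 false calls. The changed genes were drawn from those with more counts, and their median difference was 2.01 on the log2 scale. The members' median difference was 0.40, so the simulation does not tell how often differences of that size are called. Each stage has 2 pools of different fish, so p-values measure the spread between such pools.

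Alternatives were RLE normalization, no low-count filter, DESeq2 1.42.0, a replicate block and leaving out each library, and for the rule TMM scaling, an added 1 CPM, the geometric mean and a minimum of 10 CPM. The members and lists were chosen with earlier results of these data known. The genes named are the 12 members with the highest score, the 6 with the highest CPM at 10 dpf, members of the tissue lists, those with the smallest adjusted p in the even against odd contrast and with the largest replicate differences, the genes at the limit of the score, and up to 2 other genes a list by adjusted p. Further members are examples of role groups drawn up after the members were known. Lists were matched by symbol. Sequences and promoter motifs were not analysed here. The values of 1 member that this rule names are not reported here.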

Additional observations from a re-analysis of the deposited data

How the results depend on the processing

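The 68 members called higher on even days (14.9% of all genes) were 66 to 68 with RLE normalization, no low-count filter or DESeq2 (12.8% to 15.4%). They were 63 with a replicate block (13.4% of all genes). Both the count and the share of all genes moved when each library was left out. The 5 members called higher on odd days were 5 with a replicate block, RLE normalization or no filter, 3 with DESeq2 and 1 to 13 when each library was left out, where the lone library of that stage is assumed to vary like the other stages. Gene 108268512 and avil lost their calls with DESeq2 (-0.44 and -0.53 on the log2 scale). Members higher in replicate 2 stayed within 1.5 times their number at every stage by library-total CPM or without the filter. Without 9 and 10 dpf, a setting chosen after seeing the data, the counts were 80 and 7, against 21.7% and 19.4% of all genes. The listed genes that rose, 107, and fell, 51, were 105 and 49 with a replicate block (21.0% and 22.8% of all genes). With RLE normalization, no filter or DESeq2 they were 106 to 109 (21.7% to 25.3% of all genes) and 46 to 50 (18.9% to 20.7%). Both counts and both shares moved when each library was left out. Replicate numbers do not pair the libraries, since each stage has its own 2 pools of different fish. Libraries of the same number, read as departures from the mean of their stage, had correlations between -0.585 and 0.268 over 21 pairs of stages.

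Of the 150 members, 137 met the criteria of the rule with TMM-scaled CPM, 150 with 1 CPM added, 149 with geometric means and 39 with a minimum of 10 CPM at 5 dpf, where the minimum itself removes the members with lower values. Leaving out all replicate 1 libraries kept 93, and leaving out single libraries kept 120 (10 dpf replicate 1) to 150. Under all 14 of these, 69 members met the criteria and 81 failed at least one. In the step from 8 to 10 dpf the median over all genes was 0.12 on the log2 scale by library-total CPM and -0.01 by TMM CPM. Low values limit the members at 2 dpf, where 62 were below 1 CPM, although 3 counts equalled only 0.28 and 0.275 CPM there. The library with the fewest counts was replicate 1 of 5 dpf, where 3 counts equalled 0.69 CPM. At that stage 111 members had a mean below 10 CPM.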

Other observations

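A list of smooth muscle genes was drawn up after 6 members had been recognized as such, so its other genes are given as values with no test. Of the 18 other genes of this list that passed the low-count filter, 13 had a larval rise above 0, with a median of 0.75 on the log2 scale. Smtna, a smoothelin of contractile smooth muscle, stood at 3.83, pdlim3a, a protein of the Z-disc and dense bodies, at 2.20 and tagln, transgelin, at 1.67. The desmin paralog desma had a value of -0.93, the opposite sign to that of the member desmb. Across genes, the difference between replicate pools at 9 dpf and that at 10 dpf had a Pearson r of -0.682 over the 150 members and of -0.61 over all genes tested, and of -0.176 over the 126 members less than 2-fold apart at 10 dpf. The points of these correlations share 4 libraries, and genes are not independent replicates. Replicate numbers do not link the pools of different days, so the sign of r has no meaning. The value of -0.176 follows a cut on the 10 dpf difference itself, which narrows its range, and is not a separate result.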
